A study of Mus musculus with 22 samples.

Results

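A set of 10 of the 17966 genes in the deposited table was followed across 22 mouse pancreatic tumours. The genes were taken by name: 5 genes of mature, migratory dendritic cells (Ccr7, Fscn1, Cacnb3, Ccl22 and Ccl17) and the 5 subunit genes of the interleukin-12 cytokine family (Il12a, Il12b, Il23a, Ebi3 and Il27). The rule itself uses no measured value, but the members were chosen with earlier results of these data known. All 10 were in the table.

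The tumours grew orthotopically, in the pancreas, from PDA.7940B, a polyclonal mouse pancreatic ductal adenocarcinoma line derived from the KPC model, in mice labelled WT. The untreated group had 5 tumours. Another 6 tumours came from mice given 1.2 mg of beta-glucan, a glucose polymer of fungal and plant cell walls, once into a vein. A further 6 came from mice given 0.1 mg of the anti-CD40 antibody FGK45 once into the peritoneum, and 5 from mice given both agents, whose doses the labels do not repeat for that group. Treated tumours were taken 10 days after treatment, and the age of the mice was not stated in the labels. The cell line and the WT label are shared by all 4 groups. The labels do not say that the tumours of a group came from separate mice, so p-values measure only the spread between these samples.

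Dendritic cells take up antigen in tissue and, once activated, mature: they raise CCR7, the receptor that steers them along CCL19 and CCL21 to the lymph node, remodel their actin with fascin, and secrete CCL17 and CCL22, which attract T cells bearing CCR4. CD40 is the receptor on these cells through which helper T cells license them, and an agonistic antibody such as FGK45 can replace the T cell signal. The interleukin-12 family is built from shared chains. The p40 chain (Il12b) pairs with p35 (Il12a) to make IL-12, which drives interferon-gamma in T and natural killer cells, or with p19 (Il23a) to make IL-23, which sustains IL-17 responses. EBI3 pairs with p28 (Il27) to make IL-27, and with p35 to make IL-35.

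Each gene was located in GRCm38 with GENCODE M21. Il12b lies on chromosome 11 (44400063 to 44414033, plus strand), and Ccr7 on the minus strand of the same chromosome (99144196 to 99155077). Ccl22 (94745590 to 94751699) and Ccl17 (94810453 to 94812036) lie near each other on the plus strand of chromosome 8. Il23a lies on chromosome 10 (128296139 to 128298752, minus strand), Il12a on chromosome 3 (68690644 to 68698547, plus strand) and Fscn1 on chromosome 5 (142960343 to 142973185, plus strand). Cacnb3 lies on chromosome 15 (98630840 to 98644529, plus strand). Ebi3, on chromosome 17 (55952640 to 55957022, plus strand), overlaps the antisense gene Gm16712, and Il27, on chromosome 7 (126589010 to 126594941, minus strand), overlaps Apobr on the opposite strand.

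RefSeq promoter windows (GRCm38.p6) matched 7 of the 10 genes; Ccr7, Il23a and Il27 had no window in that table. The 250 bases before the transcription start are shown for Il12b, the cytokine gene on which the results turn, and for the nearby chemokine genes Ccl22 and Ccl17, none of whose comparisons passed the test. They are chr11:44399813-44400062, chr8:94745434-94745683 and chr8:94810203-94810452, each on the plus strand. The start is RefSeq's, which for Ccl22 differs from the GENCODE start above. Capitals mark matches, on either strand, to 5 short motifs: an NF-kB motif (GGG, any 5 bases, CC), an AP-1 motif (TGANTCA), a STAT motif (TTCNNNGAA), an IRF motif (GAAA, any 2 bases, GAAA) and a PU.1 motif (GAGGAA).
Il12b: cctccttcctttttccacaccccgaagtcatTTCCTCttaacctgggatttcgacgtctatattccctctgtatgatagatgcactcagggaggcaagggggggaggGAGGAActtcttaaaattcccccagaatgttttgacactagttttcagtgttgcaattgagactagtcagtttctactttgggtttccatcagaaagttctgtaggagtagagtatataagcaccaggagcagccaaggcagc
Ccl22: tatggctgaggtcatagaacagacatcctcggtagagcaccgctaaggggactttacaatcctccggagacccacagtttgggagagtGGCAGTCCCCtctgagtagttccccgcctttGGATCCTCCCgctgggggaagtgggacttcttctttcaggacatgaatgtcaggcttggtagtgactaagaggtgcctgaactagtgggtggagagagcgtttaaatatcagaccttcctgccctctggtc
Ccl17: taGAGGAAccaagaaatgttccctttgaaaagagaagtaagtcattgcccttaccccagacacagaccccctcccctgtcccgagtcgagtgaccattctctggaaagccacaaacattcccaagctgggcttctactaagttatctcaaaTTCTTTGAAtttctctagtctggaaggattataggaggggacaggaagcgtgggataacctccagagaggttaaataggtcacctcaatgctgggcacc
The Il12b window held 2 matches to GAGGAA, 1 on each strand, starting at positions -219 and -143 from the transcription start. The Ccl22 window held 2 matches to the NF-kB motif on the minus strand, at -162 and -131. The Ccl17 window held 1 match to TTCNNNGAA at -99 and 1 to GAGGAA at -248. Of 32851 RefSeq windows of 300 bases, which include 50 bases after the start, 50.8% held the NF-kB motif on either strand, 28.3% the PU.1 motif, 8.3% the STAT motif, 7.81% the AP-1 motif and 3.44% the IRF motif. These are matches of letters and nothing was measured at them.

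Values are deposited normalized counts, that is read counts divided by a size factor for each library. Depth (M, 1e6 reads) was 7.38 to 9.34 M in the untreated group, 7.13 to 8.74 M in the beta-glucan group, 6.33 to 21.2 M in the anti-CD40 group and 12.2 to 18.8 M in the combination group. A list of 17 acinar genes of normal pancreas took a median of 2.39% of reads in untreated tumours, 2.05% after beta-glucan, 23.4% after anti-CD40 and 20.9% after the combination. It was highest, at 49.96%, in anti-CD40 tumour 6 and passed 20% in 7 tumours, 4 of anti-CD40 and 3 of the combination. For each named gene, a call that was lost without those 7 tumours is given with its value there. A gene was tested where it reached a value of 10 in at least 5 tumours (14278 genes), and called where limma's Benjamini-Hochberg adjusted p over all of them was under 0.05. Of the 10 genes, 7 were tested. Il12a, Ebi3 and Il27 were below the filter. In bulk tumour RNA, fewer cells of a type and less RNA per cell cannot be told apart.

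**Figure D1:**
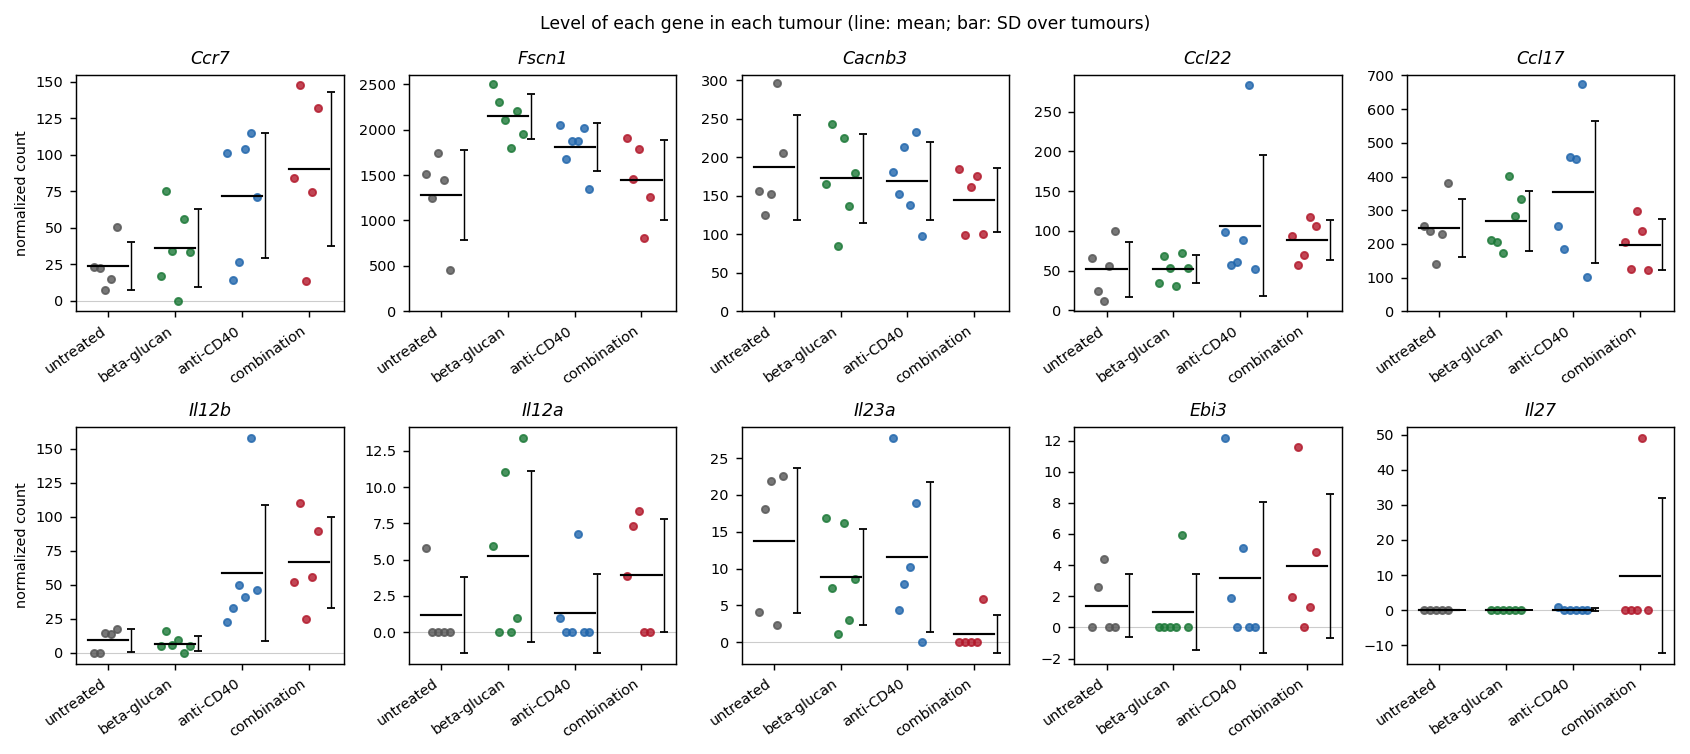
Normalized count (y axis, a separate linear scale in each panel) of the 10 genes in each of 22 tumours by treatment group (x axis), with 1 point per tumour, the group mean as a line and the SD over tumours as a bar beside it. In the Il12b panel all anti-CD40 and combination tumours lie above all untreated and beta-glucan tumours, and in the Il23a panel 4 of 5 combination tumours lie at 0.

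Among the members, the difference that stood out by the test was in Il12b, the p40 chain. This gene passed the filter only through the antibody-treated tumours, where it was high, so that it was tested at all depended on those groups. Il12b was 0, 0, 14.9, 13.7 and 17.5 normalized counts in the 5 untreated tumours. After beta-glucan it ran from 0 through a median of 5.24 to 15.9 over 6 tumours. After anti-CD40 it ran from 22.4 through a median of 43.5 to 158 over 6 tumours. All 6 anti-CD40 tumours lay above all untreated and all beta-glucan tumours. After the combination it was 52.1, 110, 25.0, 55.8 and 89.2, again above every untreated and every beta-glucan tumour. These levels rested on 43 reads over the untreated group, 40 over beta-glucan, 378 over anti-CD40 and 426 over the combination.

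On the log2(value + 1) scale Il12b rose by 3.18 ± 0.82 (SE) with anti-CD40 (n = 6 against 5; 9.05-fold on that scale; limma adjusted p = 0.00779) and by 3.49 ± 0.85 with the combination (n = 5 against 5; 11.3-fold; adjusted p = 0.00261). Group means were 9.24 ± 8.54 (SD, n = 5) in untreated tumours, 58.4 ± 49.8 (n = 6) after anti-CD40 and 66.5 ± 33.4 (n = 5) after the combination. Against beta-glucan alone, at 6.78 ± 5.40 (n = 6), the combination was higher by 3.36 ± 0.82 (adjusted p = 0.00778) and anti-CD40 by 3.05 ± 0.78 (adjusted p = 0.0385). Beta-glucan alone differed from untreated by 0.13 (95% interval -1.55 to 1.81, adjusted p = 0.956), and the combination from anti-CD40 by 0.31 (-1.37 to 1.997, adjusted p = 0.913). The first 2 comparisons share the untreated tumours. Of all genes tested, 11% were called higher with anti-CD40 than without treatment and 18.2% with the combination. Against beta-glucan those shares were 1.61% for anti-CD40 and 6.49% for the combination. Every anti-CD40 tumour lay above every untreated tumour for 5.03% of genes, and every combination tumour for 11.7%. The same held above every beta-glucan tumour for 1.44% and 5.68%.

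The Il12b calls were lost without the 7 acinar-rich tumours, which left 2 tumours in each antibody group. The difference from untreated then stood at 3.51 for anti-CD40 (limma adjusted p = 0.0719) and at 2.80 for the combination (adjusted p = 0.144). Against beta-glucan it stood at 3.38 for anti-CD40 (adjusted p = 0.235) and at 2.67 for the combination (adjusted p = 0.297). The 4 remaining tumours, at 22.4, 158, 52.1 and 25.0, still lay above the untreated ones. With the acinar level as a covariate the anti-CD40 difference was 2.20 (adjusted p = 0.119) and the combination difference 2.52 (adjusted p = 0.0471). The anti-CD40 difference from beta-glucan was called in 6 of 21 alternatives (adjusted p 0.00732 to 0.235), and leaving out any 1 of beta-glucan tumours 1, 3, 4, 5 and 6 or anti-CD40 tumours 2, 3, 4, 5 and 6 ended that call.

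Il23a, which encodes the p19 chain that shares p40, went the other way in the combination group. It was 4.16, 18.1, 21.9, 2.29 and 22.5 in untreated tumours. After beta-glucan it ran from 1.10 through a median of 8.03 to 16.9, and after anti-CD40 from 0 through 9.06 to 27.8. After the combination it was 0 in 4 tumours and 5.82 in the other. The combination libraries held 6 Il23a reads in all, against 71 in the untreated group. A count of 0 allows up to 3 reads, which is 1.93, 1.83, 2.50 and 3.98 normalized counts in those 4 tumours, for counting error only. In untreated tumours the same 3 reads are worth 2.50 to 3.76, so combination tumour 4 was read less finely than any untreated tumour, although its library held more reads. The groups overlapped, since untreated tumours 1 and 5 were under the 5.82 of combination tumour 5.

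No combination tumour reached a value of 10, so Il23a passed the filter only through the other groups, where it was higher. That it was tested at all depended on those groups. Il23a fell by 2.93 ± 0.90 on the log2(value + 1) scale with the combination (n = 5 against 5, limma adjusted p = 0.0142). Of all genes tested, 15.8% were called lower in that comparison. Against anti-CD40 the combination differed by -2.49 (95% interval -4.27 to -0.70, adjusted p = 0.141), and against beta-glucan by -2.39 (-4.17 to -0.61, adjusted p = 0.0654). The first passed the threshold without anti-CD40 tumour 6 (adjusted p = 0.0374), and the second without beta-glucan tumour 3 or combination tumour 5 (lowest adjusted p = 0.0357). Neither single agent differed from untreated by the test (-0.54 for beta-glucan, adjusted p = 0.80; -0.44 for anti-CD40, adjusted p = 0.777). The Il23a call was lost with the acinar level as a covariate (-2.25, adjusted p = 0.111) and held without the 7 acinar-rich tumours (-3.48, adjusted p = 0.0182). The summed level of 8 carcinoma epithelium genes was 26205 to 36573 in untreated tumours and 3490 to 8182 in combination tumours, and all 8 were called lower. The part of the epithelium in the Il23a result was not tested.

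**Figure D2:**
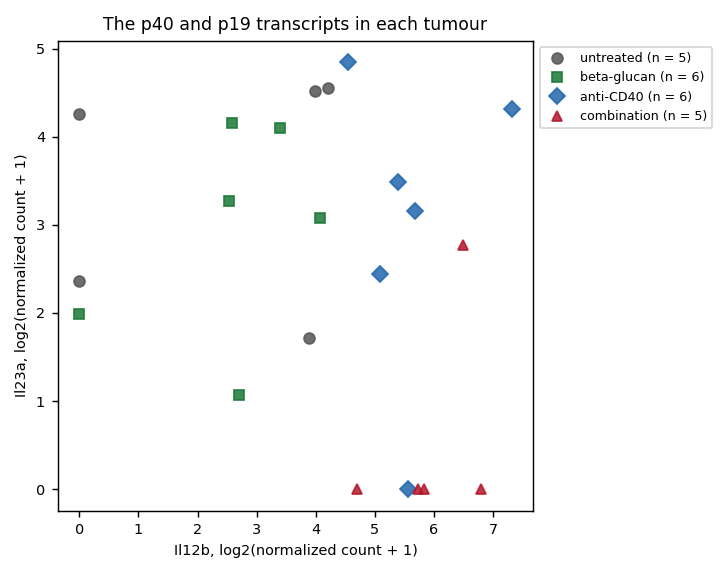
Il23a (y axis) against Il12b (x axis), both as log2(normalized count + 1), with 1 point per tumour and the 4 groups by colour and shape. Combination tumours gather at high Il12b with Il23a at 0 in 4 of 5, while anti-CD40 tumours have high Il12b and Il23a from 0 to 27.8 normalized counts.

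Il12a, the p35 partner of p40 in IL-12, had few reads in every group. It was 0 in 4 of 5 untreated tumours and 5.82 in the other. It was 0 in 2 of 6 beta-glucan tumours (highest 13.4), in 4 of 6 anti-CD40 tumours (highest 6.80) and in 2 of 5 combination tumours (highest 8.34). The groups overlapped, and anti-CD40 tumours, where Il12b was high, held 6 Il12a reads in all. In a fit with no filter the Il12a differences from untreated were 1.32 with beta-glucan, 0.10 with anti-CD40 and 1.16 with the combination, with limma adjusted p of 0.486, 0.971 and 0.361.

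Ebi3 and Il27, the chains of IL-27, also had few reads. Ebi3 was 0 in 3 of 5 untreated, 5 of 6 beta-glucan, 3 of 6 anti-CD40 and 1 of 5 combination tumours, and its highest value was 12.2, in anti-CD40 tumour 1. That tumour also held 18 reads of the overlapping antisense gene Gm16712. Neither the counting program nor its strand setting is stated, so reads of overlapping genes may not be told apart. Il27 was 0 in all untreated and beta-glucan tumours. Its reads came from 2 tumours: 2 reads in anti-CD40 tumour 1 and 37 reads in combination tumour 4. The overlapping gene Apobr had 115 reads in combination tumour 4 and 225 to 684 in the other combination tumours, none of which held an Il27 read. None of the comparisons of Il12a, Ebi3 or Il27 was called without the filter, and the lowest unadjusted p was 0.0987, for Ebi3 in the combination against beta-glucan.

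Ccr7, the homing receptor, was 23.3, 22.4, 7.02, 14.9 and 50.1 in untreated tumours. After beta-glucan it ran from 0 through a median of 33.9 to 75.3. After anti-CD40 it ran from 14.0 through a median of 85.8 to 115, and after the combination it was 83.6, 147, 13.3, 74.4 and 132. Of the 5 combination tumours, 4 lay above every untreated tumour, and the remaining one lay among them. Ccr7 differed from untreated by 1.48 after anti-CD40 (95% interval -0.32 to 3.28, limma adjusted p = 0.257) and by 1.79 after the combination (-0.09 to 3.66, adjusted p = 0.136). Neither difference passed the test. Beta-glucan differed by 0.05 (-1.75 to 1.85, adjusted p = 0.986).

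Ccl22, a ligand of CCR4, was 65.7, 24.2, 12.3, 56.1 and 100 in untreated tumours. It ran from 30.4 through 53.3 to 72.5 after beta-glucan and from 51.6 through 74.5 to 283 after anti-CD40. After the combination it was 93.9, 56.6, 70.0, 117 and 106. The groups overlapped in each comparison. The difference from untreated was 1.08 with anti-CD40 (95% interval 0.11 to 2.04) and 1.05 with the combination (0.04 to 2.06), with limma adjusted p of 0.114 and 0.102. Leaving out untreated tumour 6, the highest of its group, brought both past the threshold (1.39, adjusted p = 0.0378, and 1.37, adjusted p = 0.0322). Leaving out the 7 acinar-rich tumours did so for anti-CD40 alone (2.01, adjusted p = 0.0396).

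Ccl17, the other CCR4 ligand on the same stretch of chromosome 8, ran from 140 through 239 to 381 in untreated tumours and from 174 through 247 to 403 after beta-glucan. It ran from 103 through 353 to 674 after anti-CD40, and from 122 through 206 to 297 after the combination. The groups overlapped throughout. Differences from untreated were 0.12 with beta-glucan, 0.32 with anti-CD40 and -0.34 with the combination, and limma's adjusted p were 0.913, 0.608 and 0.541. The 95% intervals for the 2 antibody groups were -0.46 to 1.10 and -1.16 to 0.47.

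Fscn1 encodes fascin, an actin bundler of dendritic cell protrusions that carcinoma cells and other stromal cells can also make. It was 1507, 1245, 1743, 1447 and 460 in untreated tumours. All 6 beta-glucan tumours, at 1801 to 2504 with a median of 2159, lay above them. Anti-CD40 tumours ran from 1342 to 2048 and combination tumours from 804 to 1907, both overlapping the untreated ones. Fscn1 rose by 0.87 ± 0.26 on the log2 scale with beta-glucan (1.83-fold, n = 6 against 5, limma adjusted p = 0.046), where 5.09% of genes were called higher and 3.98% had groups that did not overlap in that direction. The call held in 6 of 20 alternatives, and leaving out any 1 of untreated tumours 1, 2, 5 and 6 or beta-glucan tumours 1, 2, 3, 5 and 6 ended it. Leaving out untreated tumour 6, the lowest of its group at 460, gave 0.53 (adjusted p = 0.104), and edgeR's quasi-likelihood test gave 0.75 (adjusted p = 0.0863). Fscn1 differed from untreated by 0.61 in the anti-CD40 group (adjusted p = 0.104) and by 0.24 in the combination group (adjusted p = 0.535). With the acinar level as a covariate the anti-CD40 difference was 0.9965 and passed the threshold (adjusted p = 0.0196).

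Beside Fscn1, the summed level of 7 fibroblast genes was 27074 to 52127 in untreated tumours and 59654 to 165460 after beta-glucan. There 5 of the 7 rose, beside 5.09% of all tested genes. After anti-CD40 the sum was 27257 to 100450 and 3 of 7 rose (11% of all genes). After the combination it was 134080 to 155670 and 7 of 7 rose (18.2% of all genes), where Fscn1 differed from untreated by 0.24. The summed level of the epithelium list was 26205 to 36573 in untreated tumours and 9595 to 23722 after beta-glucan. Of its 8 genes 2 fell with beta-glucan, where 6.42% of all tested genes were called in either direction. The epithelium sum was 4169 to 21019 after anti-CD40 and 3490 to 8182 after the combination. Their part in the Fscn1 result was not tested. Cacnb3, a calcium channel subunit enriched in mature dendritic cells and also made by islet cells, ran from 125 to 297 in untreated tumours and from 84.9 to 243 after beta-glucan. It ran from 97.8 to 233 after anti-CD40 and from 99.3 to 185 after the combination. Its differences from untreated lay between -0.35 and -0.13, and none passed the test (lowest limma adjusted p = 0.399).

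**Figure D3:**
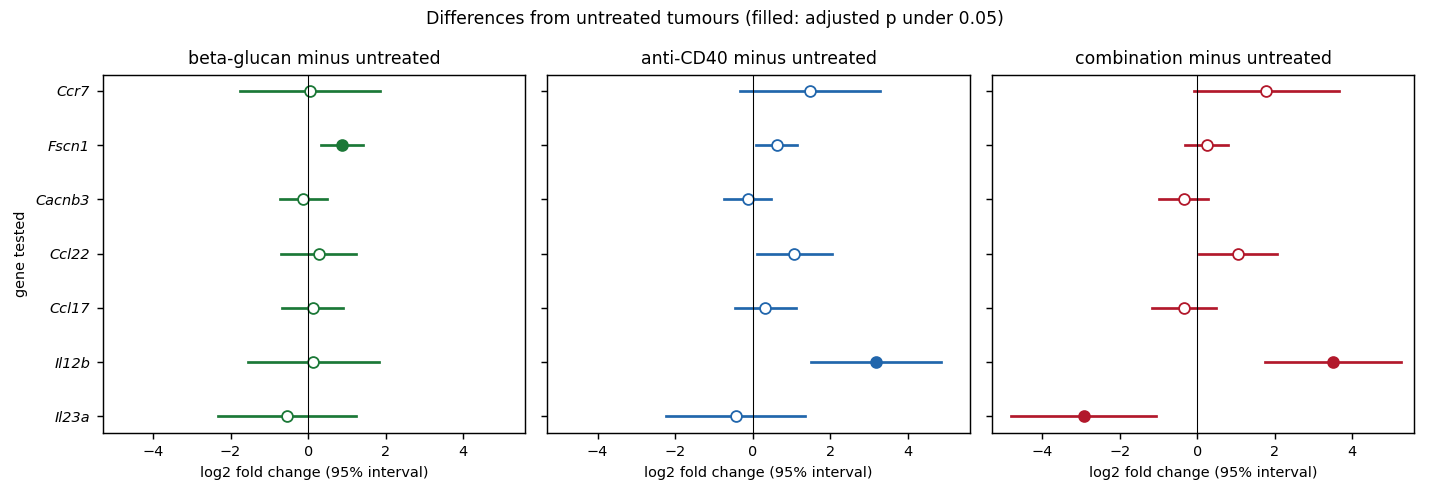
Difference from untreated tumours (x axis, log2 fold change of normalized count + 1, with its 95% interval) for the 7 tested genes (y axis) with each treatment, where filled points have a limma adjusted p under 0.05. The filled points are Fscn1 with beta-glucan, Il12b with anti-CD40 and with the combination, and Il23a, to the left of 0, with the combination.

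In all, 6 of 49 comparisons of the 7 tested genes were called over 7 contrasts. Against untreated, 1 of the 7 was called with beta-glucan, 1 with anti-CD40 and 2 with the combination. The shares of all tested genes called in either direction were 6.42%, 18.6% and 34%. Combination against beta-glucan called 1 of 7 (14.1% of all genes), anti-CD40 against beta-glucan 1 of 7 (2.1%) and combination against anti-CD40 0 of 7 (1.48%). For the last of these edgeR's quasi-likelihood test also called 0, and 1 of the 7 had an unadjusted limma p under 0.05: Il23a, at 0.00825. The interaction, which asks whether beta-glucan had a different effect with the antibody than without it, called 0 of 7 and 3 of all genes (0.021%); edgeR also called 0 of 7, and 1 of 7 had an unadjusted limma p under 0.05. The members farthest from 0 in it were Il23a at -1.95 (95% interval -4.47 to 0.57) and Fscn1 at -1.24 (-2.003 to -0.48, unadjusted p = 0.0025, adjusted p = 0.255). The members that passed the filter are not the whole set. Il12b passed it only through the 11 antibody-treated tumours, since too few untreated and beta-glucan tumours reached a value of 10. Il23a passed it only through tumours outside the combination group, since no combination tumour reached 10.

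The median difference from untreated over the 5 dendritic cell members was 0.12 with beta-glucan, 0.61 with anti-CD40 and 0.24 with the combination. The medians over all tested genes were 0.02, 0.00231 and -0.00504. Rescaling to equal totals moved the anti-CD40 median of all genes to -0.557 and the combination median to -0.448. The Il12b rises over untreated and the Il23a fall were called under that scaling too, while the Fscn1 difference with anti-CD40 shrank from 0.61 to 0.03. The Il12b difference of anti-CD40 from beta-glucan was not called under it (2.53, limma adjusted p = 0.112).

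The chain-sharing receptors were read from a list of 5, of which 2 were tested. Il12rb1, the chain that binds p40, had a median of 3.44 in untreated tumours (range 1.73 to 9.98) and 24.9 (4.75 to 46.0) after beta-glucan. It was 72.4 (48.9 to 314) after anti-CD40 and 87.5 (58.4 to 141) after the combination, and both antibody groups lay wholly above the untreated and beta-glucan tumours. For anti-CD40, 5.03% of all tested genes lay so above untreated and 1.44% above beta-glucan tumours. For the combination these shares were 11.7% and 5.68%. Il12rb1 rose by 2.22 ± 0.55 with beta-glucan, 4.25 ± 0.55 with anti-CD40 and 4.15 ± 0.57 with the combination (limma adjusted p = 0.0145, 8.31e-06 and 6.21e-06). Il6st, the gp130 chain of the IL-27 receptor, rose by 0.87 ± 0.20 with anti-CD40 and 1.18 ± 0.21 with the combination (adjusted p = 0.00359 and 0.000127). Under equal totals over all genes 1 of the 2 stayed called with either. On that scaling 536 of all 14278 genes were called higher with anti-CD40 and 1207 with the combination. Il12rb2, Il23r and Il27ra were below the filter. Il12rb2, which signals for IL-12, had a median of 0 in every group, and Il23r was 0 in every untreated tumour and at most 7.92 elsewhere.

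Of 10 tested genes in a list of kinases, transcription factors and targets of the family, 2 rose with beta-glucan, 5 with anti-CD40 and 7 with the combination, and none fell. Over all tested genes 5.09%, 11% and 18.2% rose. Ifng, the cytokine that IL-12 induces, had a median of 4.16 in untreated tumours and 3.89 after beta-glucan, against 59.6 after anti-CD40 and 77.4 after the combination. It rose by 3.72 ± 0.71 with anti-CD40 and 3.84 ± 0.74 with the combination (limma adjusted p = 0.00061 and 0.000289). Stat4, the transcription factor that IL-12 activates, rose by 2.55 ± 0.69 with beta-glucan, 3.95 ± 0.69 with anti-CD40 and 4.53 ± 0.72 with the combination (adjusted p = 0.0253, 0.000249 and 3.46e-05). Tbx21, the T-bet factor of type 1 lymphocytes, rose by 2.68 ± 0.58 with anti-CD40 and 3.14 ± 0.61 with the combination (adjusted p = 0.00214 and 0.000313). Under equal totals over all genes the counts were 0, 4 and 4 of 10, where 241, 536 and 1207 of all 14278 genes were called higher. Il17a was not analysed here.

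The summed level of 9 T cell genes was 82.5 to 427 in untreated tumours, 174 to 631 after beta-glucan, 1321 to 5562 after anti-CD40 and 2093 to 3838 after the combination. Of these, 0, 8 and 9 rose against untreated, beside 5.09%, 11% and 18.2% of all tested genes. The 6 natural killer genes summed to 66.7 to 208, 75.1 to 366, 640 to 2529 and 743 to 1517 in the same order, with Ncr1 at 0 in every untreated tumour. The part of lymphocyte content in the receptor and signalling results was not tested.

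**Figure D4:**
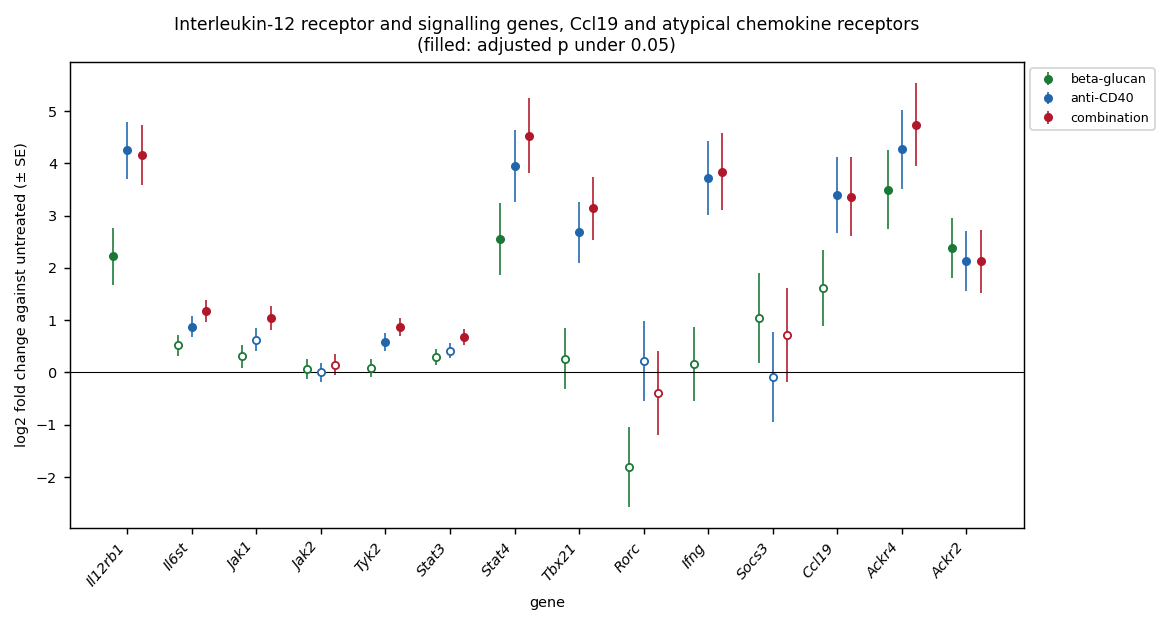
Log2 fold change against untreated tumours, with its SE (y axis), of receptor, signalling and chemokine genes that were tested and are reported here (x axis) with beta-glucan, anti-CD40 and the combination, where filled points have a limma adjusted p under 0.05. Il12rb1, Stat4, Tbx21 and Ifng stand between 2.68 and 4.53 in both antibody groups.

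Around CCR7 and CCR4, 3 of 7 listed genes were tested. Ccl19, a CCR7 ligand, had a median of 10.5 in untreated tumours, 30.5 after beta-glucan, 81.5 after anti-CD40 (62.0 to 124) and 94.5 after the combination (43.4 to 134). It rose by 3.39 ± 0.73 with anti-CD40 and 3.36 ± 0.76 with the combination (limma adjusted p = 0.00189 and 0.00134), where every treated tumour lay above the untreated range, whose top was 38.8. Such separation held for 5.03% and 11.7% of all tested genes. Ackr4, a scavenger of CCL19 and CCL21, rose by 3.50 ± 0.76, 4.27 ± 0.76 and 4.74 ± 0.79 with beta-glucan, anti-CD40 and the combination (adjusted p = 0.00551, 0.000311 and 6.33e-05). Ackr2, a scavenger of inflammatory chemokines that include CCL17 and CCL22, rose by 2.38 ± 0.57, 2.12 ± 0.57 and 2.13 ± 0.60 (adjusted p = 0.0124, 0.0109 and 0.00759). Without the 7 acinar-rich tumours 2 of the 3 were called with anti-CD40 and 1 with the combination: the calls lost were Ccl19 in both antibody groups (3.39 for anti-CD40 and 3.04 for the combination, adjusted p = 0.0542 and 0.0756) and Ackr2 in the combination group (1.85, adjusted p = 0.0984). With the acinar level as a covariate 1 and 2 of the 3 were called. Of all 14278 genes, 1472 and 1794 were called higher without those tumours, and 1070 and 2126 with the covariate. Ccr4 was below the filter, with a highest value of 15.9. The summed lymphatic endothelium list was 445 to 2756 in untreated tumours and 3142 to 5910 after the combination. It was 1931.5 to 3202 after beta-glucan and 1614 to 3815 after anti-CD40, both overlapping the untreated range. The part of lymphatic endothelium was not tested. Ccl21a, Ccl21b and Ccl21c were not analysed here.

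A second list held costimulatory and activation genes of dendritic cell maturation that are not members. Of its 11 tested genes, 2 rose with beta-glucan, 6 with anti-CD40 and 7 with the combination, and none fell. The shares of all tested genes that rose were 5.09%, 11% and 18.2%. Cd86, a costimulatory ligand of CD28, rose by 2.20 ± 0.39, 2.73 ± 0.39 and 3.33 ± 0.41 with the 3 treatments (limma adjusted p = 0.000897, 2.69e-05 and 1.45e-06). Cd40 itself, the antibody's target, had a median of 44.0 in untreated tumours, 137 after anti-CD40 and 236 after the combination, and rose by 1.75 ± 0.39 and 2.45 ± 0.41 (adjusted p = 0.00256 and 5.57e-05). Cd83, a maturation marker that activated B cells share, rose by 1.89 ± 0.45 with anti-CD40 and 1.79 ± 0.47 with the combination (adjusted p = 0.00463 and 0.00489). Lamp3, a defining marker of mature dendritic cells, was 0 in every anti-CD40 tumour and at most 6.95 elsewhere, and was below the filter. Under equal totals over all genes 1, 2 and 4 of the 11 were called, where 241, 536 and 1207 of all 14278 genes were called higher. Without the 7 acinar-rich tumours 4 were called with the combination, where 1794 of all genes were called higher. Cd83 was not among those 4 (1.05, limma adjusted p = 0.281).

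Of 9 regulatory genes of mature dendritic cells, 2 rose with beta-glucan and 5 with anti-CD40, while 6 rose and 1 fell with the combination. Over all tested genes 5.09%, 11% and 18.2% rose, and 15.8% fell with the combination. Fas, the death receptor, rose by 1.85 ± 0.36, 2.27 ± 0.36 and 2.28 ± 0.38 (limma adjusted p = 0.00225, 9.35e-05 and 5.72e-05). Pdcd1lg2, the PD-L2 ligand of PD-1, rose by 2.28 ± 0.39 with anti-CD40 and 2.02 ± 0.40 with the combination (adjusted p = 0.000193 and 0.000427). The gene that fell was Socs2, a suppressor of cytokine signalling, with a difference of -0.78 ± 0.22 between the combination and untreated tumours (adjusted p = 0.00682), which was not called without the 7 acinar-rich tumours (-0.40, adjusted p = 0.223). Of 10 migration genes, 5, 4 and 7 rose and 0, 0 and 1 fell. Myo1g, a myosin of blood cells, rose by 1.80 ± 0.29, 2.34 ± 0.29 and 3.29 ± 0.30 (adjusted p = 0.000361, 5.93e-06 and 3.99e-08). Anxa3, the one that fell, differed by -1.36 ± 0.27 with the combination (adjusted p = 0.000442). Under equal totals over all genes the migration counts were 1, 1 and 2 higher, and the regulatory counts 1, 3 and 4. On that scaling 241, 536 and 1207 of all 14278 genes were called higher.

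Of 13 tested conventional dendritic cell genes, 6, 7 and 8 rose with the 3 treatments and none fell, where 5.09%, 11% and 18.2% of all tested genes rose. Irf4 rose by 2.38 ± 0.48, 4.71 ± 0.48 and 5.30 ± 0.50 (limma adjusted p = 0.00284, 4.1e-07 and 5e-08), and Irf8 by 0.99 ± 0.21, 2.12 ± 0.21 and 2.41 ± 0.22 (adjusted p = 0.00485, 3.78e-07 and 3.95e-08). Irf4 is also a plasma cell gene, and the plasma cell list summed to 334 to 906 in untreated tumours and 3237 to 10172 after the combination. Mgl2, a lectin of type 2 dendritic cells and macrophages, was the one gene of the list called between the antibody groups: it was 630 to 1021 after anti-CD40 and 201 to 460 after the combination, a difference of -1.58 ± 0.36 (adjusted p = 0.0321). Without the 7 acinar-rich tumours, where 2 tumours remained in each antibody group, it was -1.64 and was not called (adjusted p = 0.999), nor was any other gene in that comparison. Under equal totals over all genes 1, 4 and 7 of the 13 were called higher, where 241, 536 and 1207 of all 14278 genes were. With either rescaling, with the acinar covariate and with edgeR, 1 was called lower with the combination.

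The summed level of the conventional dendritic cell list in every treated tumour was above that in every untreated tumour: 1260 to 2673 untreated, 3129 to 4704 after beta-glucan, 4407 to 10029 after anti-CD40 and 5984 to 8126 after the combination. Macrophage genes summed to 12032 to 71516, 26538 to 39057, 33277 to 87156 and 45994 to 104150 in the same order, and B cell genes to 39.9 to 192, 126 to 651, 750 to 2150 and 925 to 2128, with Cd79a at 0 in every anti-CD40 and combination tumour. Per 1000 counts of the summed conventional dendritic cell list, Il12b had a median of 6.56 in untreated tumours (0 to 11.8), 1.55 after beta-glucan (0 to 4.79), 8.03 after anti-CD40 (3.44 to 15.8) and 8.44 after the combination (4.18 to 13.6). On that scale the antibody groups overlapped the untreated range. Per 1000 counts of the macrophage list the Il12b medians were 0.245 untreated (0 to 1.24), 0.189 after beta-glucan, 1.10 after anti-CD40 (0.674 to 1.81) and 0.621 after the combination (0.358 to 2.40). Per 1000 counts of the B cell list they were 91.5 (0 to 279), 40.5, 30.9 (16.6 to 73.5) and 41.9 (27.1 to 63.8). The direction of the Il12b ratio thus depended on the list it was set against. Ccr7 per 1000 counts of the conventional dendritic cell list had medians of 12.5, 9.46, 12.96 and 12.2 in the same group order. Its medians per 1000 of the macrophage list were 0.801, 1.10, 1.49 and 0.996, and per 1000 of the B cell list 302, 164, 64.1 and 62.0. The part of these cell types in the Il12b and Ccr7 values was not tested.

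**Figure D5:**
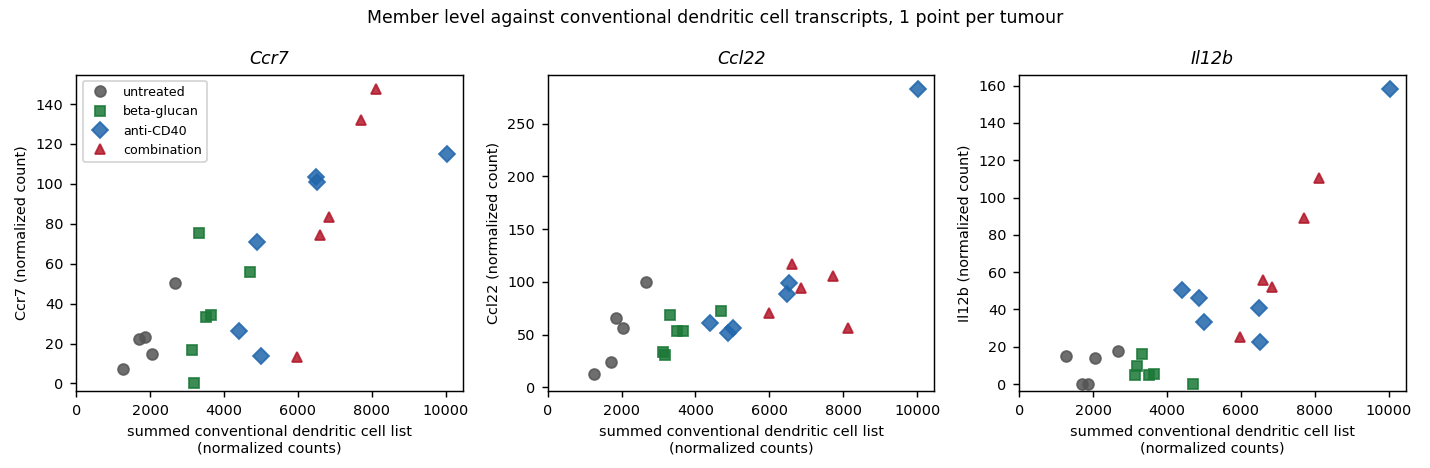
Normalized count (y axis) of Ccr7, Ccl22 and Il12b against the summed level of 14 conventional dendritic cell genes (x axis, normalized counts), with 1 point per tumour and groups by colour and shape. Anti-CD40 tumour 5 has the highest list level, 10029, and the highest Ccl22 (283) and Il12b (158).

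Across the 22 tumours, which share the same libraries and size factors, Spearman's rho of Ccr7 with the conventional dendritic cell list was 0.757, and after each group mean was subtracted it was again 0.757. For Il12b the values were 0.788 and -0.01, so no rank relation was seen once the group means were removed. Ccl22 gave 0.621 and 0.557, Fscn1 0.11 and -0.13, and Il23a -0.24 and 0.22. The values with some other lists were near these or above them. Naive lymphocytes and B cells also express Ccr7, and with the T cell list Ccr7 gave 0.7335 and 0.72. With the epithelium list Ccr7 gave -0.596 and -0.496. Ccl22 gave 0.7335 and 0.635 with the T cell list, and 0.731 and 0.598 with the macrophage list. Over the 22 tumours Il12b gave 0.856 with the B cell list, 0.829 with the T cell list and 0.824 with the macrophage list. With group means subtracted these were 0.37, -0.03 and 0.22. Among the members, with group means subtracted, the highest values were 0.57 for Ccr7 with Ccl22 and 0.53 for Cacnb3 with Ccl17, while Il12b and Il23a gave 0.31. These are descriptions over 22 tumours.

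The genes most like Il12b over the 22 tumours by the same measure were Ccr6 (0.902), Slain1 (0.90), Cd37 (0.888), Clec4a1 (0.884) and Cd79b (0.882). For Fscn1 they were Tuba1a (0.906), Tubb6 (0.863), Slco2a1, Wdr1 and Adgre5, and for Il23a Ranbp17 (0.805), Prokr1, Il5ra, Tmem40 and Stra6. For Il12b the 5 highest with group means subtracted were other genes: Snord37 (0.696), Tet1, Adam11, Pgm5 and F8a. On that measure Fscn1 gave Psma2 (0.907), Map4k4, Itgb1, Ube2r2 and Pofut2, and Il23a gave Slc25a36 (0.7135), Pglyrp1, Hyi, Cd5l and Il5ra. With group means subtracted, those most like Ccr7 were Thbd (0.812), Gab3, Oas2, Pik3cd and Cyth1, and those most like Ccl22 were Myo1g (0.844), Sash3, Cmpk2, Ms4a7 and Coro1a. For Ccl17 they were Stac2 (0.816), Lyn, Trpm2, Cd101 and Bin2, and for Cacnb3 Myh9 (0.851), Furin, Lrrc8a, Gabbr1 and Iqgap1.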

How the data were processed

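Libraries were made from 100 ng of RNA from 5 µm sections of formalin-fixed, paraffin-embedded tumours with a QuantSeq forward kit, per the labels' protocols, so a value reads the 3' end of a transcript. The submitters' processing notes name STAR, DESeq2 and the mm10 build, with no versions. The counting program, its annotation and strand setting are not stated there. The deposited signal is a read count divided by a size factor: all values (100.0%) came out as whole reads within 0.001 reads once divided by each library's step. 

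Here log2(value + 1) was fitted with limma 3.58.1 (R 4.3.3; 4 group means, trended and robust variance, two-sided, Benjamini-Hochberg per contrast), keeping the 14278 genes that reached 10 in 5 or more tumours. The steps were tested on simulated data. Depth was 6.33 to 21.2 M reads. No 2 libraries of a group agreed within sampling noise (lowest chi-square per degree of freedom 13.4 over 50 pairs). Alternatives were a pseudocount of 8, no filter, 2 rescalings to equal totals, the acinar level as a covariate, edgeR 4.0.16 on the recovered reads, only the groups compared, the replicate block and each tumour left out. Leaving out tumours with over 20% acinar reads was added after the data were seen. All members were named in every contrast; from each related list, up to 4 called genes with the smallest p per contrast were eligible to be named, and for likeness the 5 highest Spearman values. Members and lists were chosen with earlier results of these data known. The values of 1 gene of the signalling list are not reported here.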

Additional observations from a re-analysis of the deposited data

Results flagged for a closer look

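In 8 of 38 gene and group combinations with values above 0, 1 tumour stood apart from the rest of its group by the limits of Dixon's test. Where all other tumours of a group are at 0, the remaining one is flagged whatever its value. No chance rate is therefore set beside this count. Anti-CD40 tumour 5 had the highest Ccl22 (283, next 99.0) and the highest Il12b (158, next 50.2) of its group. Combination tumour 4 had Il27 at 49.1 with every other combination tumour at 0, and anti-CD40 tumour 1 had Il27 at 0.97498, 2 reads, with its group otherwise at 0. Combination tumour 5 was the only one of its group with Il23a above 0, at 5.82. Il12a stood apart in untreated tumour 1 (5.82, the others 0) and in anti-CD40 tumour 4 (6.80, next 0.97498). Ebi3 stood apart in beta-glucan tumour 5 (5.96, the others 0).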

How the results depend on the processing

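Of 1050 values of the 49 member comparisons under the alternatives, 34 lost a call, 10 gained one and 0 turned a called direction; 78 differences that were not called changed sign. For beta-glucan against untreated the count of members called went from 1 to 0 with no filter, with either rescaling, with edgeR and with only the groups compared. For anti-CD40 against untreated it went from 1 to 2 with the replicate block (Fscn1, 0.67, limma adjusted p = 0.03). It stayed at 1 with the acinar covariate and without the tumours over 20% acinar reads, but the gene changed. In place of Il12b it was Fscn1 with the covariate and Ccl22 without those tumours. For the combination against untreated it went from 2 to 1 with the acinar covariate or without the tumours over 20% acinar reads. For the combination against beta-glucan it went from 1 to 2 with the block or with only the groups compared, and to 0 without those tumours. For anti-CD40 against beta-glucan it went from 1 to 0 with either rescaling, the covariate, the block or without those tumours. Leaving out 1 tumour at a time gave 0 to 1, 1 to 2, 2 to 3, 1 to 2, 0 to 1 (combination against anti-CD40), 0 to 1 and 0 to 0 (interaction). Tumours with the same replicate number showed little likeness: 8 of 30 such pairs correlated above 0.1 (median 0.0283). Of 22 tumours, 5 correlated best with their own number. Weak correlation alone cannot show whether the numbers pair the tumours. The labels give combination tumour 5 a different number in its title than in its description. The title's number was used for these correlations and for the replicate block. With the block, genes called over the whole table were 969, 2683, 4790, 2387, 223, 304 and 8, against 916, 2650, 4849, 2013, 212, 300 and 3; edgeR on the recovered reads called 789, 2440, 4604, 1877, 148, 257 and 2. Leaving out 1 tumour gave 28 (without anti-CD40 tumour 2) to 852 genes for combination against anti-CD40 and 507 (without beta-glucan tumour 5) to 1098 for beta-glucan.

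The ranges that follow set aside the fits with 1 tumour left out. Those fits reached 2854 for anti-CD40 and 5037 for the combination against untreated. They reached 368 for anti-CD40 against beta-glucan and 12 for the interaction. Over the whole table the count otherwise ran from 258 (equal totals) to 1315 (only the groups compared) for beta-glucan against untreated. It ran from 1619 (acinar covariate) to 2697 for anti-CD40. It ran from 3081 to 4949 for the combination, from 226 to 2630 for combination against beta-glucan, from 0 to 249 for combination against anti-CD40, from 34 (equal totals) to 352 for anti-CD40 against beta-glucan and from 0 to 8 for the interaction; the lowest counts of the combination came without the acinar-rich tumours, where fewer tumours enter. Under equal totals 536 of 2394 anti-CD40 calls and 1207 of 3632 combination calls were higher, against 1571 of 2650 and 2600 of 4849 in the tests reported; outside the acinar list it was 934 of 2408 and 1892 of 4454. For beta-glucan the split went from 727 of 916 to 241 of 258, for combination against beta-glucan from 926 of 2013 to 131 of 1187 and 343 of 1601, and for anti-CD40 against beta-glucan from 230 of 300 to 15 of 34 and 64 of 108. The limit of acinar reads was first set higher, where only anti-CD40 tumour 6 was left out, and then at 20%, after the data were seen. Few reads limit Il12a, Il23a, Ebi3 and Il27, for which small differences were not detectable at this depth.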
